A study of Homo sapiens with 27 samples.

Results

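Long intergenic non-coding RNA genes that carry a systematic LINC symbol were examined in U2OS, a human osteosarcoma cell line, after depletion of TPR. The members were all genes of lncRNA type whose symbol was LINC followed by 5 digits, with no antisense suffix, and whose mean over the 27 libraries was above 1 FPKM (fragments per kilobase of transcript, scaled to the number of mapped fragments). This rule took 253 gene IDs with 252 symbols, out of 2074 LINC-named lncRNA genes in the deposited table and out of 14611 genes of any type above the same limit. LINC01605 was represented by 2 overlapping IDs on the minus strand. ENSG00000253414 had a mean of 7.06 FPKM and ENSG00000253161 had a mean of 1.04 FPKM, and how reads were divided between them is uncertain. The members nearest to the limit were LINC02469 at 1.02 FPKM and LINC00853 at 1.03 FPKM, and the genes just outside were LINC00352 at 0.995 FPKM and LINC01833 at 0.991 FPKM.

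The cells were infected with lentivirus for a control shRNA of scrambled sequence, for TPR A or for TPR D, the latter both directed against TPR, and were selected with puromycin. Each culture gave a nuclear, a cytoplasmic and a total fraction, the cytoplasmic one being the detergent-soluble material that also holds the endoplasmic reticulum. Poly(A)+ RNA of each fraction was sequenced in 3 replicates, so that the 9 groups held 3 libraries each. All groups carried an shRNA, and no uninfected cells were among the samples. RNA levels in a fraction are relative to the other RNA of that library, so that fewer cells with an RNA and less of it per cell cannot be told apart.

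LINC symbols are assigned to long non-coding RNA genes that lie between protein-coding genes and have no other name. Their transcripts are made by RNA polymerase II and are mostly capped, spliced and polyadenylated, as mRNAs are. Some stay at chromatin or are degraded in the nucleus by the RNA exosome, while others leave through the nuclear pore with the NXF1 export receptor. TPR is a long coiled-coil protein that builds the filaments of the nuclear basket, the structure on the inner face of the pore through which RNA passes before export. The study asked which RNAs depend on TPR for their distribution between nucleus and cytoplasm, and the LINC genes form a set of poly(A)+ RNAs that are not translated into known proteins.

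Sequences of 6 of the 7 members with a higher level in the total fraction after TPR depletion are shown first, to give the 3′ ends of RNAs whose levels are described below. Each line gives 30 bases near the end of the gene's reference transcript, 5′ to 3′ on the gene's strand in GRCh37. The capitals mark the polyadenylation signal hexamer AATAAA or its variant ATTAAA, searched on the transcript strand only.
LINC01910, chr18:68047377-68047406, minus strand: aaaacgcaAATAAAagtagtggaaatagca
LINC01447, chr7:47669457-47669486, plus strand: gatagtgatAATAAAtgactgttactggtt
LINC01711, chr20:57210765-57210794, plus strand: acgtttggaAATAAAaacaagtgggaaaga
LINC02377, chr4:132512950-132512979, plus strand: aagtgtttATTAAAatttaccagtaaaata
LINC01518, chr10:43139906-43139935, minus strand: tttttaccATTAAAacacctgctttaaata
LINC01411, chr5:173956956-173956985, plus strand: aaaaaatccAATAAAcaccactgaatcaat
In these 6 the hexamer began 21 to 35 bases before the end of the transcript. Among all members, 128 of 253 (50.6%) had one of the hexamers in the last 50 bases of the reference transcript, against 82.0% of protein-coding genes, 43.8% of antisense lncRNAs and 42.5% of the remaining lncRNAs. The 7 were selected by their level, and a hexamer in the annotation does not show that it was used in these cells.

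The check of the shRNA labels was clear. TPR in the total fraction was 28.2, 25.7 and 25.3 FPKM in control cells, 4.36, 3.44 and 4.70 FPKM with TPR A and 3.23, 4.74 and 6.01 FPKM with TPR D. The change was -2.51 on the log2 scale, with a 2-sided exact permutation p of 0.0238 over the 84 splits of the cultures. All controls lay above all depleted cultures, which is the most extreme split, so that a larger change would not have lowered this p. Over the 27 libraries the mesenchymal markers VIM (853.6 to 2662 FPKM) and THY1 (61.2 to 309.6 FPKM) were well above 0, as were SPARC (269.2 to 948.8 FPKM), COL1A1 (20.6 to 87.5 FPKM) and RUNX2 (6.25 to 25.1 FPKM) of the osteoblast lineage. COL1A2, another collagen gene of osteoblasts, was at only 0.0302 to 0.744 FPKM. Of the epithelial markers, EPCAM was at 1.43 to 6.87 FPKM and CDH1 at 0.216 to 1.67 FPKM.

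Of the 27 libraries, 25 had a profile closest to that of their labelled fraction, and the other two did not. The library labelled control nuclear replicate 2 had 21.8% of its FPKM in the mitochondrial genome, against 0.774% to 2.42% in the other nuclear libraries, and its profile across genes correlated with the total profile at r = 0.976 and with the nuclear one at 0.944. The library labelled control total replicate 2 had 0.738% of its FPKM there, against 15.8% to 24.7% in the other total libraries, and its r was 0.972 with the nuclear profile and 0.94 with the total one. Both were kept under their labels, the cause was not tested, and the medians, the counts and the values of called members that rest on them are mostly given without the control replicate 2 culture as well.

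LINC genes were expressed at low levels. The median of the members' mean levels was 3.24 FPKM, compared with 15.4 FPKM for protein-coding genes and 2.86 FPKM for antisense lncRNAs. Only 54 members exceeded 10 FPKM, 82 lay between 1 and 2 FPKM, and the 10 highest held 32.0% of the summed level. In all 27 libraries 237 members were above 0, and 53 of the 6831 values of members were listed at 0. The spread between replicates was also wider for them, with a median SD of 0.47 on the log2 scale against 0.35 for protein-coding genes.

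The highest member was LINC03033 on chromosome 14 (62037123 to 62125414, plus strand), with a mean of 144.9 FPKM. It overlaps a protein-coding gene on the same strand, so that part of its reads may belong to that gene. Its total level was 168.4, 85.8 and 165.0 FPKM in control cells, 129.5, 155.7 and 160.5 FPKM with TPR A, and 241.0, 196.5 and 211.9 FPKM with TPR D. All TPR D libraries lay above the control libraries, but the change for TPR D (0.77, SE 0.31) did not pass the test (adjusted p = 0.258).

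LINC00958 (chromosome 11, 12983088 to 13011144, minus strand, mean 107.6 FPKM) is a lncRNA described in bladder and other cancers. In the total fraction it was at 100.4, 79.5 and 137.1 FPKM in control cells, 100.6, 101.4 and 104.8 FPKM with TPR A, and 97.8, 102.3 and 93.8 FPKM with TPR D. The depleted cultures lay within the range of the controls, and the change for both shRNAs was 0.03 (SE 0.17, adjusted p = 0.955).

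LINC00963 (chromosome 9, 132239225 to 132275966, plus strand, mean 83.3 FPKM) is a lncRNA first studied in prostate cancer. Its cytoplasmic level was 141.0, 137.6 and 150.1 FPKM in control cells, 72.8, 101.1 and 91.5 FPKM with TPR A, and 112.4, 132.9 and 131.4 FPKM with TPR D. No depleted library reached the lowest control library. The difference for both shRNAs was -0.42 (SE 0.16) and did not pass the test (adjusted p = 0.289).

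LINC00973 (chromosome 3, 98699902 to 98701940, plus strand, mean 66.0 FPKM) was at 40.2, 35.2 and 60.9 FPKM in the total fraction of control cells, 77.5, 78.9 and 68.1 FPKM with TPR A, and 114.0, 58.1 and 43.1 FPKM with TPR D. Only the TPR A libraries all lay above the controls, and the change for both shRNAs was 0.73 (SE 0.25, adjusted p = 0.148). The other members among the 10 highest were LINC00508 (62.8 FPKM), LINC02242 (51.6 FPKM), LINC02503 (50.7 FPKM), LINC02972 (44.9 FPKM), LINC01609 (39.9 FPKM) and LINC01116 (39.8 FPKM).

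**Figure D1:**
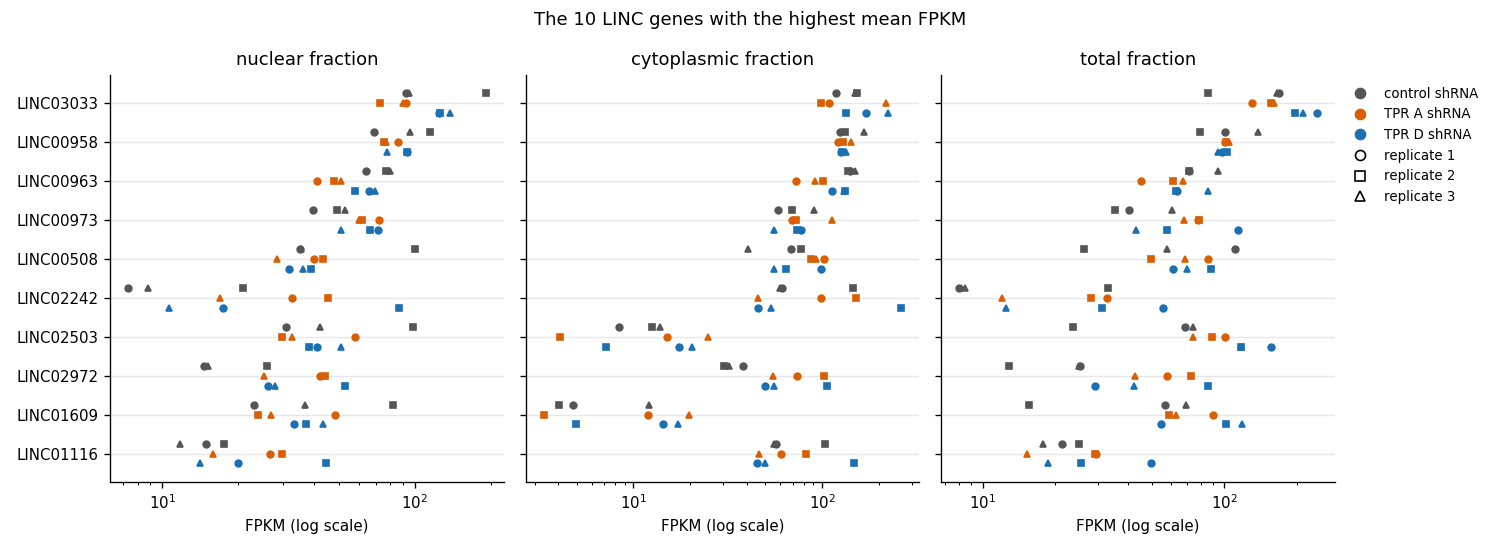
Levels of the 10 LINC genes with the highest mean FPKM, one panel per fraction, with FPKM on a log axis, colour for the shRNA and marker shape for the replicate. LINC03033 (144.9 FPKM on average) and LINC00958 (107.6 FPKM) lead, and LINC02242 is far higher in the cytoplasmic (61.5, 145.3 and 59.9 FPKM in control cells) than in the nuclear panel (7.35, 20.9 and 8.76 FPKM).

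In the total fraction more LINC genes were higher after TPR depletion than lower. For both shRNAs, 7 of 253 members (2.77%) rose and 0 fell (63 had an unadjusted p under 0.05 and a higher level, 3 a lower one), where 0.773% of all genes tested rose and 0.363% fell (unadjusted 7.91% and 8.19%). With TPR A alone 6 members (2.37%) rose, against 0.541% of all genes, and with TPR D alone 1 member (0.395%) rose, against 0.315% of all genes. No member fell with either, against 0.281% of all genes with TPR A and 0.438% with TPR D. The limma test was fitted over all 14611 genes, and the comparisons share the same control cultures. The members had a median log2 change of 0.35 (TPR A), 0.41 (TPR D) or 0.40 (both), and 80.6% of members were above 0, where the median of all genes was -0.01 and 48.8% were above 0.

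The medians of other lncRNA classes lay on the same side, at 0.28 for antisense lncRNAs, 0.27 for host genes of small RNAs and 0.31 for the remaining lncRNAs, whereas protein-coding genes had a median of -0.05. This difference was not tested. The size of the shift depended on the control replicate 2 culture. Without it these class medians were 0.10, 0.17, 0.14 and -0.03. The members' median without it was 0.20 with TPR A, 0.15 with TPR D and 0.20 with both, 63.6% of members were above 0, and no member passed the limma test for both shRNAs (26 had an unadjusted p under 0.05 and a higher level, 2 a lower one), where 0.192% of all genes rose and 0.0753% fell, and 4.65% and 3.88% of all genes had such an unadjusted p. With either shRNA alone no member passed without that culture, where 0.171% of all genes rose and 0.11% fell with TPR A, and 0.205% rose and 0.274% fell with TPR D. The count of 7 also moved with other cultures, since the adjusted p-values were close to the threshold. It was 14 without control replicate 3, and 0 to 4 without any 1 of the other cultures.

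Control and TPR A libraries of the same replicate number deviated together in the total fraction. When replicate number entered the fit as a block, 11 members (4.35%) rose with TPR A, against 1.57% of all genes, and 1 (0.395%) fell, against 1.02%. The member that fell, named after its values were seen, was LINC00174 (chromosome 7, 65841031 to 65958553, minus strand). Its total level was 26.3, 52.1 and 49.6 FPKM in control cells, 15.7, 12.8 and 27.2 FPKM with TPR A, and 24.9, 30.1 and 34.8 FPKM with TPR D. TPR A replicate 3 lay just above control replicate 1, and the change within the block was -1.15 (SE 0.25). LINC00520, LINC00578, LINC01711, LINC02972 and LINC02432 rose with TPR A in that fit and not in the one without the block. The fit with the block kept the control replicate 2 culture, without which no member passed for TPR A in the unblocked fit.

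**Figure D2:**
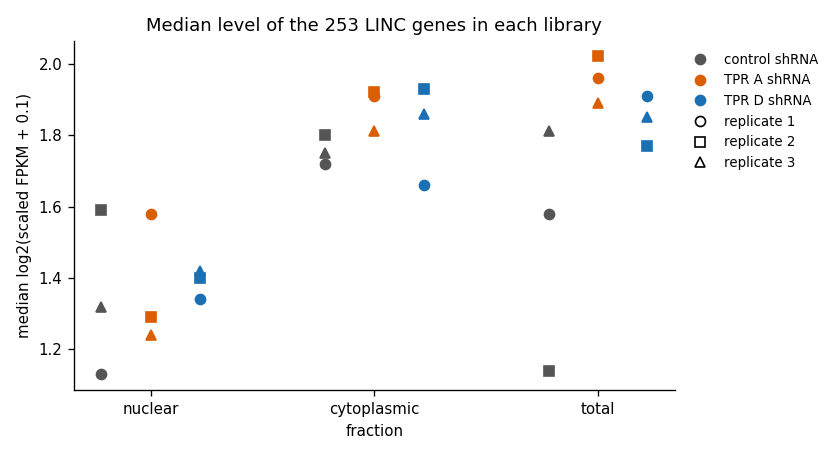
Median level of the 253 LINC genes in each of the 27 libraries, as log2(scaled FPKM + 0.1), by fraction, with colour for the shRNA and marker shape for the replicate. In the total fraction the library labelled control replicate 2 stands lowest at 1.14, while the other control libraries are at 1.58 and 1.81.

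LINC01910 (ENSG00000266278, chromosome 18, 68047376 to 68051827, minus strand) had the largest change of the 7. Its total level was 0.563, 0.539 and 1.45 FPKM in control cells, 3.22, 2.58 and 2.70 FPKM with TPR A, and 2.73, 1.75 and 1.65 FPKM with TPR D. All depleted libraries were above all controls. It rose by 1.57 on the log2 scale for both shRNAs (SE 0.34, adjusted p = 0.0261), and the value without control replicate 2 was 1.32, which did not pass.

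LINC01447 (ENSG00000236078, chromosome 7, 47648063 to 47669491, plus strand) was the only member that rose with each shRNA taken alone. It was at 1.67, 1.33 and 2.17 FPKM in the total fraction of control cells, 4.04, 7.21 and 3.46 FPKM with TPR A, and 3.59, 6.94 and 3.49 FPKM with TPR D. The groups did not overlap. The change was 1.47 with TPR A (SE 0.34, adjusted p = 0.0439), 1.41 with TPR D (SE 0.34, adjusted p = 0.0492) and 1.44 with both (SE 0.29, adjusted p = 0.0177), and 1.25 without control replicate 2, where it did not pass.

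The groups of LINC01447 were also apart in the fractions. Its nuclear level was 1.27, 1.65 and 1.47 FPKM in control cells, 2.84, 3.59 and 2.40 FPKM with TPR A, and 1.88, 3.94 and 2.52 FPKM with TPR D. Its cytoplasmic level was 2.04, 2.56 and 2.42 FPKM in control cells, 3.83, 5.38 and 3.45 FPKM with TPR A, and 3.34, 7.18 and 4.01 FPKM with TPR D. The nuclear and the cytoplasmic level were thus both higher in all depleted cultures, and the N/C ratio lay between -0.84 and -0.41 in all 9 cultures.

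LINC01711 (ENSG00000268941, chromosome 20, 57209828 to 57210794, plus strand) has a single annotated exon. Its total level was 3.61, 2.23 and 4.49 FPKM in control cells, 5.32, 12 and 10.5 FPKM with TPR A, and 10.0, 7.48 and 8.31 FPKM with TPR D. All depleted libraries exceeded the controls, and it rose by 1.43 for both shRNAs (SE 0.32, adjusted p = 0.0323). The value without control replicate 2 was 1.12, which did not pass.

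LINC02972 (ENSG00000249790, chromosome 12, 8940849 to 8948385, plus strand) was the most abundant of the 7. Its total level was 25.2, 12.9 and 25 FPKM in control cells, 57.9, 73.0 and 42.5 FPKM with TPR A, and 29.1, 85.3 and 42.1 FPKM with TPR D. The lowest depleted library, TPR D replicate 1, was close to the controls but above them. It rose by 1.42 for both shRNAs (SE 0.34, adjusted p = 0.0416), with 1.07 without control replicate 2, which did not pass.

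LINC02377 (ENSG00000250102, chromosome 4, 132300872 to 132512980, plus strand) was at 3.54, 1.42 and 3.58 FPKM in the total fraction of control cells, 7.03, 5.15 and 4.70 FPKM with TPR A, and 6.42, 6.69 and 5.33 FPKM with TPR D. The groups did not overlap. It rose by 1.18 for both shRNAs (SE 0.28, adjusted p = 0.0399), and the value without control replicate 2 was 0.73, which did not pass.

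LINC01518 (ENSG00000233515, chromosome 10, 43139893 to 43187171, minus strand) was at 4.58, 2.52 and 7.48 FPKM in the total fraction of control cells, 10.3, 13.2 and 9.35 FPKM with TPR A, and 6.39, 8.50 and 8.30 FPKM with TPR D. TPR D replicate 1 lay below control replicate 3. It rose by 1.09 for both shRNAs (SE 0.26, adjusted p = 0.0409) and by 1.33 with TPR A (adjusted p = 0.0417), with 0.67 for both without control replicate 2, which did not pass.

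LINC01411 (ENSG00000249306, chromosome 5, 173763298 to 173959460, plus strand) was at 5.25, 3.25 and 7.94 FPKM in the total fraction of control cells, 12.1, 11.1 and 12 FPKM with TPR A, and 6.53, 9.37 and 9.79 FPKM with TPR D. Here too TPR D replicate 1 lay within the range of the controls. It rose by 1.01 for both shRNAs (SE 0.23, adjusted p = 0.0313) and by 1.23 with TPR A (SE 0.26, adjusted p = 0.0292), with 0.65 for both without control replicate 2, which did not pass.

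**Figure D3:**
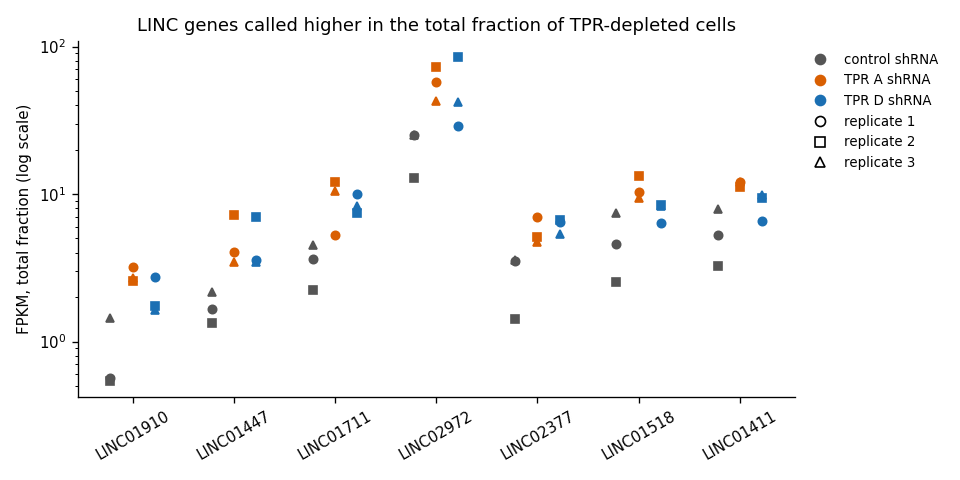
Total-fraction FPKM on a log axis for the 7 LINC genes that rose for both shRNAs, with colour for the shRNA and marker shape for the replicate (3 libraries per group). Control replicate 2 (grey squares) is the lowest library for each gene, for example 12.9 FPKM against 25.2 and 25 FPKM for LINC02972.

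Besides LINC01910, LINC01447, LINC01518 and LINC01411, the members that rose with TPR A alone were LINC02086 and the ENSG00000253161 entry of LINC01605. LINC02086 (chromosome 17, 46724285 to 46784708, plus strand) was at 1.71, 0.819 and 2.51 FPKM in the total fraction of control cells, 3.51, 3.85 and 4.14 FPKM with TPR A, and 1.78, 1.76 and 2.03 FPKM with TPR D. The TPR D libraries lay within the range of the controls. Its change was 1.33 with TPR A (SE 0.31, adjusted p = 0.048) and 0.33 with TPR D. Leaving out control replicate 2 gave 0.88, which did not pass, and -0.11. No member passed the direct limma test of TPR A against TPR D in the total fraction (7 were higher and 6 lower with TPR A without adjustment), where 0.226% of all genes tested had more RNA with TPR A and 0.0548% with TPR D. The LINC01605 entry rose by 1.88 with TPR A (SE 0.44, adjusted p = 0.0473), from 0.382, 0.173 and 0.609 FPKM to 1.33, 2.27 and 1.14 FPKM, and the value without control replicate 2 was 1.49, which did not pass.

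Members with separate groups were also counted, whether or not they passed the test, so that the count below includes LINC01910, LINC01447 and LINC01711. All 6 depleted libraries lay above all 3 controls in the total fraction for 22 members (8.70%, against 3.94% of all genes), and below them for 1 member (0.395%, against 2.98%), LINC00951, which is named after its values were seen. LINC00951 was at 5.46, 5.79 and 4.92 FPKM in control cells and at 2.34 to 4.45 FPKM in depleted cells. Without control replicate 2 the corresponding counts were 25 higher (9.88%, against 5.94%) and 5 lower (1.98%, against 5.89%). Among those higher, LINC02432 went from 2.42, 0.879 and 2.54 FPKM to 3.51 to 11 FPKM, with a change of 1.76 for both shRNAs (adjusted p = 0.0861).

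The nuclear and cytoplasmic medians of the LINC genes lay nearer to 0 than the total ones when all cultures were used. The median log2 change of the members in the nucleus was -0.03 with TPR A, 0.04 with TPR D and 0.03 with both, where that of all genes was -0.02. In the cytoplasm it was 0.07, 0.05 and 0.06, where that of all genes was -0.02. When control replicate 2 was left out, the nuclear medians were 0.10, 0.16 and 0.13, for TPR D no smaller than the total median of 0.15, and 67.2% of members were then above 0 in the nucleus with TPR D. The cytoplasmic medians without it were 0.07, 0.06 and 0.06. In the nuclear fraction 1 member (0.395%) rose for both shRNAs, against 0.568% of all genes, and in the cytoplasmic fraction 1 member (0.395%) rose, against 0.39% of all genes. None fell, against 0.24% and 0.253% of all genes.

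With 1 shRNA alone, no member passed the limma test in the nucleus. For TPR A, 23 members had a higher level and 11 a lower one with an unadjusted p under 0.05 (6.25% and 5.94% of all genes), where 0.575% and 0.329% of all genes passed. For TPR D, 18 members were higher and 5 lower at that p (4.46% and 4.67% of all genes), where 0.219% and 0.26% of all genes passed. In the cytoplasm no member passed for TPR D, with 12 higher and 13 lower at that p (4.38% and 5.04% of all genes), where 0.212% and 0.363% of all genes passed.

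The nuclear member was LINC01119 (ENSG00000239332, chromosome 2, 47043836 to 47086148, plus strand). Its nuclear level was listed at 0 in control replicate 1 and was 0.754 and 0.383 FPKM in the others, and it was 1.74, 1.78 and 1.37 FPKM with TPR A and 1.12, 1.5 and 1.97 FPKM with TPR D. It was thus higher in all depleted cultures, by 2.25 (SE 0.52, adjusted p = 0.0378), a size that depends on the pseudocount because of the 0. It passed in 5 of 18 alternative settings, among them the one without control replicate 2, where the value was 2.90. With TPR A alone its change was 2.30, which did not pass, and 2.95 without control replicate 2, which did (adjusted p = 0.0306).

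The cytoplasmic level of LINC01119 was 2.46, 1.36 and 2.81 FPKM in control cells, 2.47, 1.39 and 2.63 FPKM with TPR A, and 1.42, 0.927 and 2.14 FPKM with TPR D. These groups overlapped. Its log2 N/C ratio was -2.63 in control (-3.58 without control replicate 2), -0.34 in TPR A and 0.09 in TPR D cells, but the change of the ratio (2.50, SE 0.73) did not pass the test (adjusted p = 0.999).

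The cytoplasmic member was LINC01814 (ENSG00000236008, chromosome 2, 8601833 to 8733033, minus strand). Its cytoplasmic level was 0.719, 0.893 and 2.82 FPKM in control cells, 6.71, 3.9 and 3.81 FPKM with TPR A, and 3.06, 5.75 and 4.28 FPKM with TPR D. All depleted libraries were above the controls. It rose by 1.78 for both shRNAs (SE 0.37, adjusted p = 0.0222) and by 1.85 with TPR A (SE 0.42, adjusted p = 0.0417), and the values without control replicate 2 were 1.57 for both and 1.64 with TPR A, which did not pass.

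With TPR A, 2 members (0.791%) rose in the cytoplasm, against 0.397% of all genes, and none fell, against 0.226%, the second being LINC01998 (ENSG00000243321, chromosome 3, 149795281 to 149797904, minus strand). Its cytoplasmic level was 0.546, 0.744 and 1.5 FPKM in control cells and 1.81, 7.79 and 2.42 FPKM with TPR A, a change of 1.84 (SE 0.42, adjusted p = 0.0411) that was 1.75 and did not pass without control replicate 2. With TPR D it was 1.67, 2.17 and 2.15 FPKM, which was also above the controls. The groups of LINC01447, LINC01998, LINC01193 and the ENSG00000253161 entry of LINC01605 did not overlap in any of the 3 fractions and were higher after depletion, which makes 1.58% of members against 0.479% of all genes. No member was lower in all 3, against 0.26% of all genes.

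Counts of members with separate groups were above the background in both directions in the cytoplasm. There 13 members (5.14%, against 2.50% of all genes) had all depleted libraries above the controls, and 14 (5.53%, against 2.89%) had them below. In the nucleus the counts were 13 above (5.14%, against 2.97%) and 4 below (1.58%, against 3.24%), the latter being LINC02762, LINC01414, LINC02976 and LINC01795, named after their values were seen. Without control replicate 2 the nuclear counts became 31 above (12.3%, against 6.1%) and 4 below (1.58%, against 6.74%), and the cytoplasmic counts 19 above (7.51%, against 3.75%) and 20 below (7.91%, against 4.63%).

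As a set the LINC genes had lower N/C ratios than the typical gene. The N/C ratio is the log2 difference between the nuclear and the cytoplasmic level after each library was scaled to the typical gene, so that 0 marks the typical gene and not equal numbers of molecules. MALAT1, a nuclear lncRNA, averaged 21.7 FPKM in nuclear and 105.4 FPKM in total libraries with TPR A (26.4 and 159.7 FPKM with TPR D). NEAT1, another, averaged 29.8 and 97.4 FPKM with TPR A (47.4 and 106.7 FPKM with TPR D). Both were lower still in cytoplasmic libraries. The reason for their low share in the nuclear libraries was not tested. A low N/C ratio therefore does not by itself place an RNA in the cytoplasm. In control cells the median of the members was -0.51 and 24.5% of members were above 0, where the median of all genes was -0.01 and 49.3% were above 0. The median was -0.38 for antisense lncRNAs, -0.31 for host genes of small RNAs, -0.19 for the remaining lncRNAs and 0.02 for protein-coding genes, and without control replicate 2 these were -0.47, -0.40, -0.22 and 0.03. The members' median was -0.58, -0.30 and -0.49 in the 3 control cultures, -0.28, -0.46 and -0.75 in the TPR A cultures, and -0.38, -0.47 and -0.37 in the TPR D cultures.

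**Figure D4:**
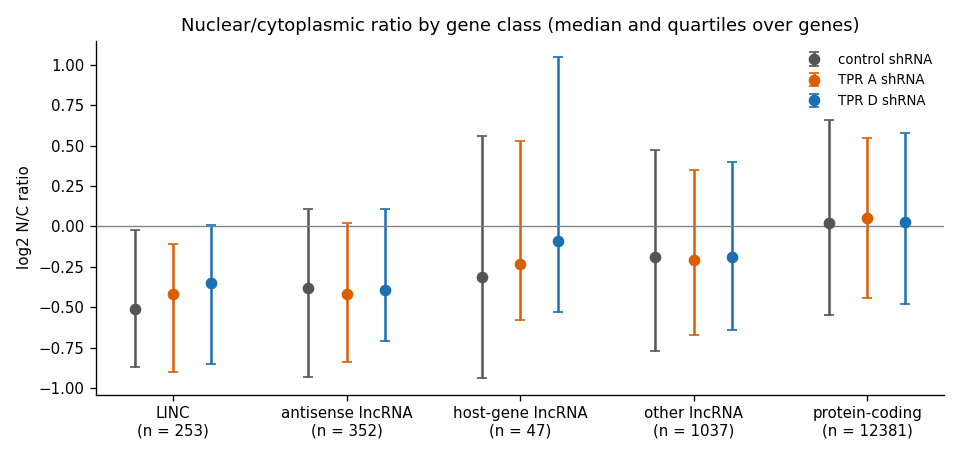
Log2 N/C ratio by gene class for each shRNA, with points for the median over genes and bars from the lower to the upper quartile (the spread between genes, not an error of the median). LINC genes are lowest in control cells, with a median of -0.51 against 0.02 for protein-coding genes, and the bars of all classes overlap.

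In control cells 17 members (6.72%) had an N/C ratio higher than that of the typical gene and 59 (23.3%) a lower one by the limma test, against 20.2% and 19.2% of all genes. In TPR A cells the counts were 11 higher (4.35%, against 15.2% of all genes) and 51 lower (20.2%, against 13.2%), and with TPR D they were 12 higher (4.74%, against 17.1%) and 46 lower (18.2%, against 14.6%). In all 3 kinds of cells 36 members (14.2%) passed on the lower side and 9 (3.56%) on the higher side, against 9.84% and 12.3% of all genes. Without control replicate 2, 9 members were higher and 56 lower in control cells, against 15.6% and 14.2% of all genes, and the median was -0.57.

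LINC00460 (ENSG00000233532, chromosome 13, 107026825 to 107036663, plus strand), a lncRNA described in many epithelial cancers, was among the members with a low N/C ratio. In control cells its cytoplasmic level was 26.7, 23.0 and 34.7 FPKM and its nuclear level 4.24, 6.05 and 4.82 FPKM. The fractions did not overlap, and the N/C ratio was -2.42 (SE 0.36, adjusted p = 4.27e-05). The value was -2.05 in TPR A and -2.23 in TPR D cells, and it passed the test in all 19 alternative settings for each shRNA.

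LINC01116 is on chromosome 2 (177476165 to 177502659, minus strand). Its N/C ratio was -1.89, -2.51 and -2.19 in the control cultures, -1.17, -1.44 and -1.54 with TPR A, and -1.17, -1.71 and -1.77 with TPR D. Every depleted culture was nearer to 0 than every control, but the ratio was lower than that of the typical gene in each kind of cell, at -2.20 in control cells (SE 0.45, adjusted p = 0.000661), -1.38 with TPR A (adjusted p = 0.0254) and -1.55 with TPR D (adjusted p = 0.0116).

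LINC02242 (chromosome 5, 66928094 to 66942617, minus strand) showed a similar order of cultures. Its N/C ratio was -3.01, -2.74 and -2.73 in the control cultures, -1.59, -1.72 and -1.43 with TPR A, and -1.38, -1.59 and -2.27 with TPR D. The groups did not overlap, while the levels varied widely between replicates, the cytoplasmic one being 46.0, 263.6 and 53.7 FPKM with TPR D. The control ratio was -2.83 (SE 0.77, adjusted p = 0.00607), and the change for both shRNAs (1.16, SE 0.95) did not pass the test (adjusted p = 0.999).

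The lower members in control cells also included LINC02840 (-2.87, SE 0.83, adjusted p = 0.0092) and LINC02267 (-2.46, SE 0.77, adjusted p = 0.0148). The value of LINC02267 without control replicate 2 was -2.33, which did not pass. LINC01551 (-4.16, SE 1.77, adjusted p = 0.0665) and LINC02777 (-2.79, SE 1.22, adjusted p = 0.0724) had values as low but did not pass, although LINC02777 did without that culture (-3.94, adjusted p = 0.0471). For LINC01551 the control cultures had ratios of -1.14, -7.04 and -4.32, so that its replicates hardly fix a value.

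On the nuclear side, LINC00342 had the highest fitted value in control cells when all cultures were used, with N/C ratios of 1.72, 5.12 and 1.89 in the cultures and a fitted value of 2.91 (SE 0.55, adjusted p = 0.000346). The culture of 5.12 is control replicate 2, whose nuclear library stands apart. LINC01609 (2.75, SE 0.63, adjusted p = 0.00163), LINC00504 (2.41, SE 0.58, adjusted p = 0.00248), LINC01001 (2.38, SE 0.43, adjusted p = 0.000203) and LINC02895 (2.32, SE 0.58, adjusted p = 0.00314) followed. LINC03041 had a value of 2.82 and did not pass (SE 1.38, adjusted p = 0.109). The order changed without control replicate 2, where LINC01001 was at 1.98, LINC01609 at 1.95, LINC00342 at 1.80, LINC02895 at 1.71 and LINC00504 at 1.63, all of which passed, and LINC03041 at 3.54, which did not. LINC01001 shares 83.7% of its 30-base stretches with other genes, so that its level depends on how the reads were divided.

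No member passed the test for a change of the N/C ratio. Neither did any of the 14611 genes, with limma for any shRNA contrast (background 0%). That fit did not use the pairing of nuclear and cytoplasmic libraries from the same culture. The lack of calls therefore does not show that the ratios were unchanged. For both shRNAs 2 members had an unadjusted p under 0.05 and a higher ratio, LINC01119 and LINC02840, and 3 a lower one, LINC00648, LINC01814 and LINC00882, where 1.07% and 0.643% of all genes did. With TPR A the numbers were 5 and 6, against 0.835% and 0.637% of all genes, and with TPR D they were 3 and 0, against 0.561% and 0.26%. The numbers for both shRNAs without control replicate 2 were 5 higher (LINC02193, LINC01409, LINC02777, LINC01119 and LINC01198, named after their values were seen) and 0 lower, against 0.452% and 0.287% of all genes, so that none of the 3 lower members was left. They were then 6 and 1 with TPR A, against 0.363% and 0.349%, and 6 and 0 with TPR D, against 0.472% and 0.226%. The standard error of the change had a median of 0.55 over the members for 1 shRNA and of 0.47 for both, so that only large changes could have passed.

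The members' median change was -0.05 (TPR A), 0.04 (TPR D) or 0.01 (both). Without control replicate 2 it was 0.10, 0.12 and 0.12. The median for both shRNAs was 0.03 for antisense lncRNAs, 0.22 for host genes of small RNAs, 0.00 for the remaining lncRNAs and -0.00 for all genes. Without that culture these were 0.11, 0.29, 0.07 and -0.01. Within replicate 1, whose columns are named in another style, the members' median was 0.23 for both shRNAs, and within replicates 2 and 3 it was -0.13. The sign of the median therefore differed between these sets, but the -0.13 includes the control replicate 2 culture. Over all cultures except that one, the median for both shRNAs was 0.12, with the sign seen within replicate 1.

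LINC00882 (chromosome 3, 106349316 to 106959518, minus strand) was one of the members with an unadjusted p under 0.05. Its N/C ratio was -1.20, -0.36 and -1.11 in the control cultures, -1.56, -2.32 and -2.35 with TPR A, and -1.54, -2.14 and -1.87 with TPR D. All depleted cultures lay below the controls. The ratio was -0.89 in control cells (adjusted p = 0.0348), -2.08 with TPR A (SE 0.33, adjusted p = 0.00012) and -1.85 with TPR D (adjusted p = 0.000252), and the change of -1.07 for both, or -0.80 without control replicate 2, did not pass.

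LINC01814 was at N/C ratios of 1.34, 1.82 and 0.27 in the control cultures, -0.68, 0.28 and -0.50 with TPR A, and 0.62, -0.90 and 0.24 with TPR D. Control replicate 3 lay within the range of the depleted cultures, and the change was -1.30, or -0.96 without control replicate 2. LINC02840 had the opposite order, with -3.53, -3.23 and -1.84 in the control cultures, 1.56, 1.26 and -3.18 with TPR A, and -1.24, -0.91 and -1.01 with TPR D, and a change of 2.28. TPR A replicate 3 lay within the range of its controls. The other members at the ends of the range were LINC03041 (-3.05), LINC00648 (-1.99), LINC02585 (-1.98), LINC00342 (-1.10), LINC02777 (2.54), LINC02301 (2.07) and LINC01198 (1.96), all with an adjusted p of 0.999. Without control replicate 2 the change was 0.11 for LINC02585 and 0.01 for LINC00342, so that neither stayed low. The rest of these kept their sign without that culture.

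LINC02193 (chromosome 16, 90239625 to 90289259, plus strand) differed between the shRNAs in value. Its N/C ratio was 2.58, 3.06 and 3.29 with TPR D, a fitted 2.98 that passed the test (SE 0.70, adjusted p = 0.0027), while it was -0.66 in control cells and -0.73 with TPR A. It did not pass the direct test of TPR A against TPR D, which no gene passed with limma (0.11% of all genes had an unadjusted p under 0.05 and a higher ratio with TPR A, 0.226% a lower one). It shares 61.9% of its 30-base stretches with other genes.

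The members' gene structure set them apart from mRNAs. By the annotation, 10 members had 1 exon, 60 had 2 to under 3 (as the median over transcripts), 85 had 3 to under 4 and 98 had 4 or more. Their median was 3 exons, against 7 for protein-coding genes, with a spliced length of 1003 nt against 1930.5 nt and a gene length of 13636 nt against 22871 nt. Of the 253, 228 overlapped no protein-coding gene, 9 overlapped one on the same strand and 16 on the opposite strand. The 5′ splice site motif AGGTAAG, searched on the transcript strand, was in the reference transcript of 11 members (4.35%), against 8.57% of protein-coding genes, 4.83% of antisense lncRNAs and 5.04% of the remaining lncRNAs.

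Members with fewer exons had higher values of the N/C change. Across the 253 members Spearman's rank correlation of exon number with the change was -0.327 for both shRNAs and -0.255 without control replicate 2. It was -0.343 for TPR A alone and -0.246 for TPR D alone, and -0.264 and -0.15 without that culture. These are descriptions across genes that share libraries. The median change for both shRNAs was 0.15 in members with 2 to under 3 exons, -0.04 with 3 to under 4 and -0.13 with 4 or more. Without control replicate 2 these medians were 0.22, 0.12 and 0.02. The 10 members with 1 exon had a median of 0.39, which rests on few genes.

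The same correlation was -0.316 across protein-coding genes and -0.164 across the other 1430 lncRNAs with exon annotation, and without control replicate 2 these were -0.365 and -0.0486. The rank correlation of gene length with the change was -0.266 across members, and -0.197 without control replicate 2. By length, the median change for both shRNAs was 0.18 for the 65 members of up to 5 kb, -0.00 for 94 members of 5 to 20 kb, -0.21 for 64 members of 20 to 100 kb and -0.30 for 30 longer members. Without control replicate 2 these medians were 0.24, 0.11, 0.03 and -0.09, so that the sign for 20 to 100 kb depended on that culture. Exon number and gene length go together, and their parts were not tested apart.

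The relation was also followed in each culture. The rank correlation of exon number with the N/C ratio itself was 0.0637, 0.174 and 0.0378 in the control cultures, -0.0979, -0.0834 and -0.0719 with TPR A, and -0.0028, -0.00731 and -0.0087 with TPR D. All values were near 0, and the depleted cultures lay below the controls. The median ratio of the 70 members with under 3 exons minus that of the 98 members with 4 or more was -0.00, -0.25 and 0.08 in the control cultures, 0.22, 0.27 and 0.24 with TPR A, and 0.09, 0.02 and 0.04 with TPR D. Here control replicate 3 lay within the range of the TPR D cultures.

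**Figure D5:**
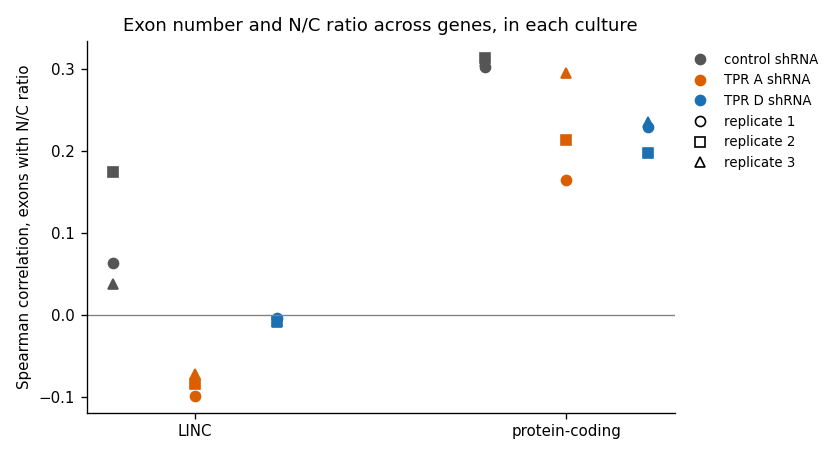
Spearman's rank correlation of annotated exon number with log2 N/C ratio across genes in each culture, for LINC and protein-coding genes, with colour for the shRNA and marker shape for the replicate. LINC genes lie between -0.0979 and 0.174, with the depleted cultures below the controls, and protein-coding genes are all positive, with 0.302 in control replicate 1.

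LINC01560 on chromosome X (47342970 to 47344222, plus strand) is annotated with 1 exon and LINC00452 on chromosome 13 (114591279 to 114626485, plus strand) with 8, the fewest and the most. The cytoplasmic level of LINC01560 was 3.34, 3.53 and 3.91 FPKM in control cells, 1.35, 1.58 and 2.50 FPKM with TPR A, and 2.32, 1.77 and 2.47 FPKM with TPR D. All depleted libraries were below the controls, but the change of -0.82 did not pass (adjusted p = 0.107). The N/C ratio of LINC00452 was -0.44, -0.03 and -0.10 in control cultures, -0.32, -0.54 and -0.02 with TPR A, and -0.20, -0.71 and -0.17 with TPR D, with full overlap of the groups.

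Many members hold sequence that occurs elsewhere in the transcriptome, which matters because reads from such stretches cannot be placed with certainty. The median share of a member's 30-base stretches found in another gene was 4.49%. It was over 20% for 35 members, and 39 members shared none. In control cells the median N/C ratio was -0.55 for the 136 members sharing 5% or less and -0.09 for those sharing over 20%. The total-fraction change had a median of 0.41 in the first and 0.39 in the second. The medians without control replicate 2 were -0.71 and -0.06 for the ratio and 0.19 and 0.14 for the total change.

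A group of members whose levels varied together was chosen after its values were seen. Over the 27 libraries 11 members, LINC02895 included, had an r of 0.9 or more with LINC02895, or 4.35% of members against 3.74% of all genes. The others were LINC00504, LINC01873, LINC01609, LINC02503, LINC02108, LINC01967, LINC02444, LINC01684, LINC00342 and LINC00205. Outside the LINC set 535 genes did so, 471 of them protein-coding. The median share of 30-base stretches found in other genes was 19.5% in the group and 4.38% in the other members.

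LINC02895 (chromosome 15, 38431796 to 38519098, minus strand) shows the pattern of the group. Its nuclear level was 23.9, 70.8 and 34.6 FPKM in control cells, 47.5, 23.8 and 27.6 FPKM with TPR A, and 33.8, 31.4 and 41.9 FPKM with TPR D. Its total level was 54.4, 16.7 and 65.5 FPKM in control cells, 81.0, 61.7 and 65.7 FPKM with TPR A, and 73.3, 88.1 and 89.3 FPKM with TPR D. The highest nuclear and the lowest total value were those of control replicate 2. The nuclear lncRNA MALAT1 had a like order, at 22.1, 83.6 and 40.1 FPKM in the control nuclear and 82.1, 16.3 and 122.2 FPKM in the control total libraries. Outside control replicate 2, both LINC02895 and MALAT1 were thus lower in the control nuclear than in the control total libraries. The group's median N/C ratio in control cells was 2.08, and 1.48 without control replicate 2, and its median total change was 0.86, and 0.32 without that culture. These medians follow in part from choosing the group by its correlation with LINC02895 over the same libraries. Without the group, the members' median total change was 0.38 and the median N/C ratio in control cells -0.54. Leaving out control replicate 2 as well, these were 0.19 and -0.59.

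Factors that act on the decay and export of poly(A)+ lncRNAs were looked at in the total fraction. Of 20 listed genes, among them subunits of the nuclear exosome and its adaptors, the export receptor NXF1 and THO complex genes, 19 were above the expression limit and 0 passed the limma test for either shRNA or both (for both, 4 had an unadjusted p under 0.05 and a lower level and 0 a higher one, where 8.19% and 7.91% of all genes did). Their change for both shRNAs ranged from -0.64 for NXF1 to 0.43 for ZFC3H1, a subunit of the poly(A) tail exosome targeting connection, with a median of -0.29, where that of all genes was -0.01. Leaving out control replicate 2, the median was -0.04 and 0 of the 19 had such an unadjusted p. NORAD, which earlier carried the name LINC00657 and is no member, was at 43.8, 25.8 and 51.6 FPKM in the total fraction of control cells, 24.3, 28.8 and 33.2 FPKM with TPR A, and 29.2, 32.3 and 37.7 FPKM with TPR D. The depleted libraries lay within or below the range of the controls, whose lower end is control replicate 2, and all of them lay below the other two controls.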

How the data were processed

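RNA of 3 fractions from control, TPR A and TPR D U2OS cells was sequenced by the authors with a directional library kit. They quantified reads with Salmon against Gencode coding and lncRNA transcripts (hg19 in the submitters' notes), summed them to genes and deposited FPKM for 34464 genes. Their own fold changes came from DESeq2 and were not used. Genes were matched to GENCODE release 44 on GRCh37 (32776 matched). Each library was scaled by a median-of-ratios factor (0.9542 to 1.06) and taken as log2(FPKM + 0.1), which understates changes of low genes. The 14611 genes outside the mitochondrial genome with a mean above 1 FPKM were fitted with limma 3.58.1 in R 4.3.3 (trend, 27 libraries in 9 groups, Benjamini-Hochberg over all genes, threshold 0.05). "Both" is the average of TPR A and TPR D. Non-overlap was counted on scaled FPKM. The fit was also run on simulated data with independent noise for each library, which checks the calculation and not its assumptions for these data.

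Depth was estimated from the steps between low values: 1 FPKM on 1 kb stood for 32.7 to 49.4 reads in cytoplasmic, 46.4 to 62.8 in nuclear and 41.9 to 90.5 in total libraries. Read counts were not analysed here, so counting intervals are not given. Within-group replicates are described by the study as biological, while the labels do not say what separates them, so that p-values measure the spread between these samples. Deviations of same-numbered libraries correlated at 0.137 to 0.324 for control and TPR A in the total fraction, with every pair above 0.1. This was so in 3 of 9 group pairs, and only that one compares a TPR shRNA with control. The pairing is read from the data and not from the labels.

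The members and lists were chosen with earlier results of these data known. Named genes were TPR, MALAT1, NEAT1 and NORAD, the 10 members with the highest mean, up to 10 called members in each comparison, the 6 highest and 6 lowest N/C ratios in control cells, the 5 highest and 5 lowest N/C changes, the members with extreme exon number or gene length, and up to 6 non-overlapping members per fraction. Alternatives were the scaling, pseudocounts of 1 and 0.01, no filter and a mean above 5, leaving out each culture, replicate and culture blocks, no trend, only the groups compared, and replicates 2 and 3 alone. Within-replicate values and those without the co-varying group were added after seeing the data. Some sequences of members are not reported here.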

Additional observations from a re-analysis of the deposited data

How the results depend on the processing

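Counts of members past the threshold depended on the settings, since most adjusted p-values were close to 0.05. The order below is TPR A, TPR D and both. Without the filter (30252 genes tested) the total counts were 2, 0 and 3, the nuclear count for both 0 and the cytoplasmic count for TPR A 1. With a mean above 5 (10344 genes, 96 members) the total counts were 1, 0 and 4, the nuclear count for both 0, the cytoplasmic counts for TPR A and both 0, and the N/C counts in control, TPR A and TPR D cells 32, 37 and 31. With the replicate block the total counts were 12 (11 higher, 1 lower), 9 (all higher) and 16 (15 higher, 1 lower), where 1.57%, 1.51% and 2.24% of all genes were higher and 1.02%, 1.64% and 1.59% lower. The nuclear ones were 4 (3 higher, 1 lower), 1 (lower) and 3 (higher), against 1.57%, 0.842% and 1.44% of all genes higher and 0.999%, 0.725% and 0.732% lower, and the cytoplasmic ones 7 (4 higher, 3 lower), 1 (higher) and 6 (5 higher, 1 lower), against 1.2%, 0.801% and 1.3% higher and 1.05%, 0.986% and 1.07% lower. Over all 9 group pairs the correlations of same-numbered libraries ran from -0.26 to 0.597, and in 40 of 54 checks of a library against the 3 of another group it correlated best with its own number. With replicates 2 and 3 alone all counts for changes of level were 0 except 1 in the cytoplasm for both, the N/C counts were 40, 38 and 31, and the TPR changes were -2.57 and -2.16, no longer past the threshold. With only the compared groups in the fit the counts for changes of level were 0. The total count for TPR D was 0 with FPKM as deposited, 0 with a pseudocount of 0.01 and 2 with the culture block. The nuclear count for both was 0 with either other pseudocount, and the culture block gave 1 for TPR A. The cytoplasmic count for both was 2 with the culture block and 2 without the trend. The median N/C ratio in control cells was -0.35 with a pseudocount of 1, and the median N/C change for both was 0.23 within replicate 1. N/C changes reversed for LINC02585 (0.11, and -3.32 the lowest, without control replicate 1) and LINC00342 (0.01, and -1.69) without control replicate 2, and for LINC02777 (-0.18) and LINC02301 (-0.09) with replicates 2 and 3 alone. The cause was not tested.

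Leaving out 1 culture at a time, the total counts ranged from 0 to 10, 0 to 5 and 0 to 14, the nuclear ones from 0 to 1, 0 to 0 and 0 to 1, and the cytoplasmic ones from 0 to 4, 0 to 1 and 0 to 2. The N/C counts ranged from 45 to 82 in control, 16 to 72 in TPR A and 25 to 63 in TPR D cells, and the counts of N/C changes from 0 to 0. The median total change ranged from 0.20 to 0.52, 0.15 to 0.56 and 0.20 to 0.55, the median N/C ratio in control cells from -0.57 to -0.40, and the median N/C change from -0.14 to 0.10, -0.01 to 0.12 and -0.04 to 0.12. The TPR change ranged from -2.68 to -2.46 and from -2.65 to -2.21. Among the single genes named, 827 values kept their direction and side of the threshold, 240 kept the direction only and 4 reversed. Low FPKM and 3 libraries a group limit the precision.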
